A study of Homo sapiens with 9 samples.

Results

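The 55 genes described here are neighbours on the distal long arm of chromosome 15, in the bands named 15q25-q26, and form 55 of the 58884 genes in the deposited count table. They run in map order from WDR73 (ENSG00000177082) to LYSMD4 (ENSG00000183060), between 84639285 and 99733444 on chromosome 15 of GRCh38, a span of 15.1 Mb. They were chosen by their measured expression, as neighbouring genes whose counts are together higher in LM2 than in both other lines, so the LM2 comparisons of these genes are descriptions: their counts of genes past a threshold are printed beside the share of all genes, and nothing is read from them. The comparison of BrM2 with Par was not used to list them and is tested, although its libraries are the same ones. Of the 55 genes, 47 passed the filter on low counts and 8 did not (ALPK3, NTRK3, ACAN, RHCG, PLIN1, GDPGP1, FES and ST8SIA2). Of the 47, 4 passed through the libraries of 1 line only, MRPL46, DET1 and PRC1 through LM2 and MCTP2 through BrM2, so that a difference was built into their passing.

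RNA was sequenced from MDA-MB-231 breast cancer cells (the parental population, Par) and from 2 sub-populations of them that had been selected in mice for metastasis to the lung (LM2) and to the brain (BrM2). MDA-MB-231 is a triple-negative line of mesenchymal type, grown here as monolayers in DMEM with fetal bovine serum. Each line had 3 libraries, harvested at different passages, and counts on genes totalled 19878879 to 23948742 in Par, 23581487 to 24511786 in LM2 and 14371858 to 22055215 in BrM2. Each sub-population is 1 selected derivative of 1 cell line, so the p-values below measure the spread between passages and not between independent selections. VIM (at least 634 CPM, normalized counts relative to library size) and CD44 (at least 497 CPM) were high in every library, while ESR1 and PGR reached at most 0.651 and 0.176 CPM, and CDH1 at most 1.94 CPM. Of the other genes that this type of line usually lacks, CLDN3 reached at most 0.434 CPM, whereas EPCAM lay between 2.72 and 7.91 CPM, CLDN7 between 5.96 and 22.3 CPM and CLDN4 between 4.52 and 107 CPM. Of the markers of other cell types, the leukocyte genes PTPRC, CD3E and LYZ reached at most 0.419 CPM and CD14 lay between 0.924 and 4.56 CPM. The endothelial genes CDH5 and VWF reached at most 0.662 CPM and PECAM1 lay between 2.07 and 7.17 CPM. The fibroblast genes DCN and LUM reached at most 2.12 CPM, while COL1A1 lay between 4.53 and 54.2 CPM and PDGFRB between 3.86 and 31.1 CPM. Across all genes, libraries that share a replicate number departed from their line means in the same direction, and differences within a replicate number are therefore given beside the pooled ones.

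Genes next to each other on a chromosome usually belong to unrelated pathways, and the genes of 15q25-q26 are such a mixture. The block holds IGF1R, the receptor tyrosine kinase for insulin-like growth factors, FURIN, a protease of the trans-Golgi network that cleaves proproteins, BLM and FANCI, which act in the repair of stalled replication forks and of crosslinked DNA, and IDH2, the mitochondrial NADP-dependent isocitrate dehydrogenase. It also holds POLG, the polymerase of mitochondrial DNA, IQGAP1, a scaffold between small GTPases and the cytoskeleton, and CHD2, a chromatin remodeller.

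The promoters of the block also differ widely in composition. RefSeq gives a promoter window (250 bases before to 50 bases after the start, GRCh38.p14) for 49 of the 55 genes and for 43 of the 47 that passed the filter. The windows of 4 genes are shown because they differ in composition and their genes in response. TTC23 and ZNF592 had close log2 fold changes of 1.0 and 1.15 between LM2 and Par. Their windows had the lowest and the highest GC content of the 43 (41.7% and 83.0%). MRPS11 shares 181 bases of its window with that of MRPL46, which is transcribed in the other direction from a start 320 bases away. FURIN, with a GC-rich window (80.3%), had a log2 fold change of 0.10. Capitals mark GC boxes (GGGCGG) and CCAAT boxes (CCAAT) on either strand, the second strand reading CCGCCC and ATTGG, and each sequence runs 5′ to 3′ on the strand of its gene.
TTC23: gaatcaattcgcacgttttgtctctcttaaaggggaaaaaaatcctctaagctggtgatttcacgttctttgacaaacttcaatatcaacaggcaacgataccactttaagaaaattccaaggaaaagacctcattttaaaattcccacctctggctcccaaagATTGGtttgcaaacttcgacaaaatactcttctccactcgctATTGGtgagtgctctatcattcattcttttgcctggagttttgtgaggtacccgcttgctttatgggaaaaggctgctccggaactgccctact
ZNF592: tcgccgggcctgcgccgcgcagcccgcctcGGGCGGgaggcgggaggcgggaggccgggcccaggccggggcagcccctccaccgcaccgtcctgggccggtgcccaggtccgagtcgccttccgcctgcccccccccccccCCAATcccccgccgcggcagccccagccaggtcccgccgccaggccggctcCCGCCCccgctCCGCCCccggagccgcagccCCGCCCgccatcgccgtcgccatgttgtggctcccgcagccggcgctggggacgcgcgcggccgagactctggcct
MRPS11: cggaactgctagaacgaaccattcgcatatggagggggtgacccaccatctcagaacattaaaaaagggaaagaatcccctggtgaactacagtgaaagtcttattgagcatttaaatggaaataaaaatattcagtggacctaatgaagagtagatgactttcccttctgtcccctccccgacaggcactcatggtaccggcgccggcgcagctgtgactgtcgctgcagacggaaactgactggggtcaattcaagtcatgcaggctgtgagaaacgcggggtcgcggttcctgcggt
FURIN: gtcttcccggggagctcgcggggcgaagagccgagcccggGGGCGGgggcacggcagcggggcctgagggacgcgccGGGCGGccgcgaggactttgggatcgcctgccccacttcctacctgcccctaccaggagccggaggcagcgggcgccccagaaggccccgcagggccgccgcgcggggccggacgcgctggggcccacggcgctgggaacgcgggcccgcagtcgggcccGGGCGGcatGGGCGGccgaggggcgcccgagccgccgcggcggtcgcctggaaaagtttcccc
The windows lie at chr15:99249532-99249831, - strand (TTC23), chr15:84748342-84748641, + strand (ZNF592), chr15:88467458-88467757, + strand (MRPS11) and chr15:90871290-90871589, + strand (FURIN). Those of TTC23 and FURIN lie inside their genes, whose outermost starts are at 99251225 and 90868588. Which start these cells use was not tested. A GC box was present in 31 of the 43 windows (72.1%), against 70.7% of the 9742 windows of all tested genes with one and 44.6% of all 27305 windows in the RefSeq table. A CCAAT box was present in 20 of 43 (46.5%), against 36.8% and 35.7%. TATA boxes (TATAAA) were found in 3, the E-box CACGTG in 5 and the AP-1 letters TGACTCA or TGAGTCA in 2 of the 43 windows, which is 7.0%, 11.6% and 4.7% against 5.4%, 9.9% and 3.1% of the tested genes. Among the 32 genes with a window and a log2 fold change of at least 0.5 between LM2 and Par, 22 held a GC box and 18 a CCAAT box, and among the 11 below 0.5, 9 held a GC box and 2 a CCAAT box. Across the 43 genes, Spearman's rank correlation between the GC content of the window and the LM2 vs Par log2 fold change was -0.39, beside -0.11 across the 9742 tested genes. These are matches of letters, given as descriptions.

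The question that the list raises is where the shift starts and where it ends. Relative to Par, LM2 had a median log2 fold change of 0.87 over the 47 genes, against 0.01 over all 13018 genes tested. Of the 47, 43 were above 0, as were 6682 of the 13018. Relative to BrM2 the median was 0.98, against 0.03 over all genes. Here 42 of the 47 were above 0, as were 6811 of the 13018. Within replicate numbers 1, 2 and 3 the medians were 0.80, 0.67 and 0.82 for LM2 against Par and 0.93, 0.89 and 0.98 for LM2 against BrM2. In bulk RNA, a change in every cell and a change in the share of cells with a high level cannot be told apart.

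**Figure D1:**
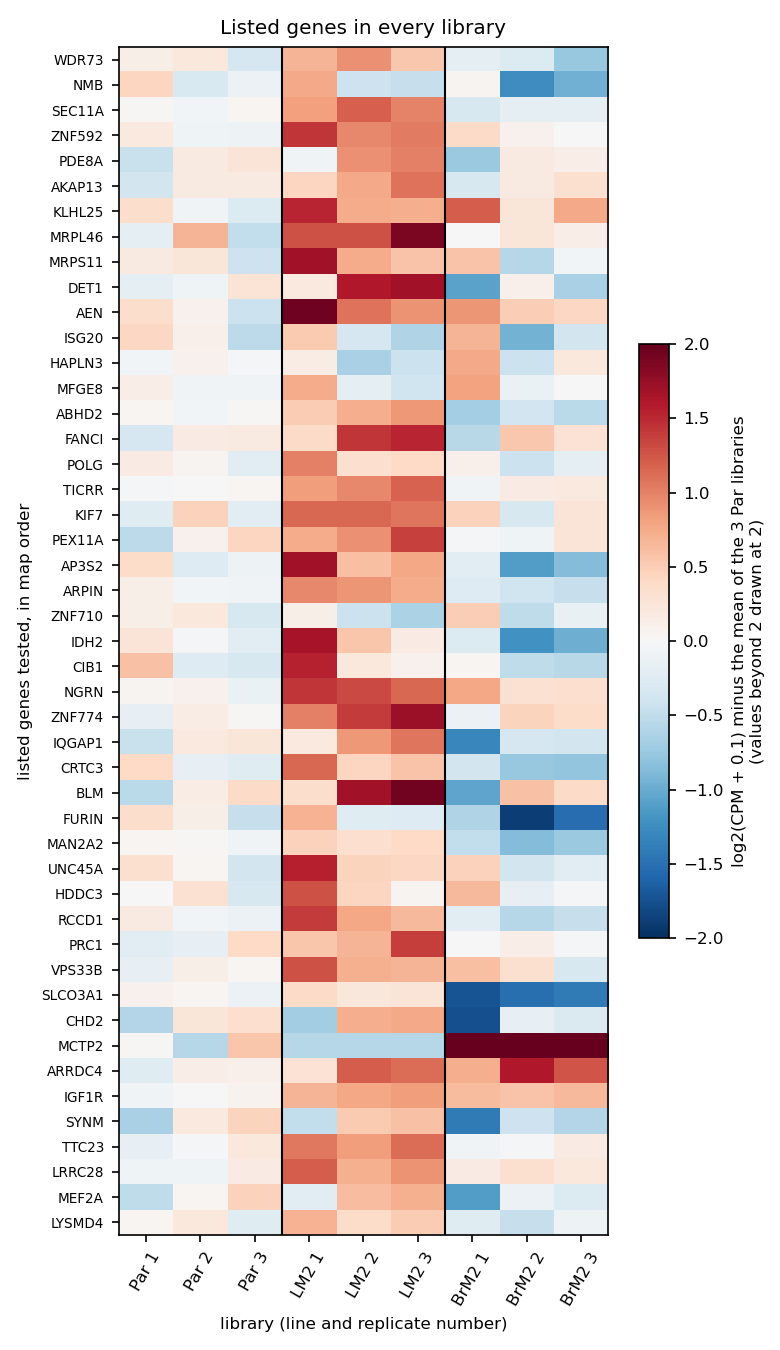
Levels of the 47 listed genes that passed the filter (rows, in map order) in the 9 libraries (columns), as log2(CPM + 0.1) minus the mean of the 3 Par libraries, with values beyond 2 drawn at 2. The LM2 columns are red for most rows. NMB, ISG20, HAPLN3, MFGE8, ZNF710 and FURIN are not raised in LM2 replicates 2 and 3, and MCTP2 is high in BrM2 alone.

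By edgeR, at an adjusted p of 0.05 over all genes, 14 of the 47 genes were higher in LM2 than in Par, where 4.16% of all genes tested were, and 0 were lower, where 4.51% of all genes were. With the replicate number as a block the count was 35 of 47, beside 15.5% of all genes, again with 0 lower. In 30 of the 47 genes all 3 LM2 libraries lay above all 3 Par libraries, which held for 11.8% of all genes, and in 0 did they all lie below (13.3% of all genes). Against BrM2, 17 of 47 genes were past the threshold as higher in LM2 (4.01% of all genes) and 1, MCTP2, as lower (4.09% of all genes), and 8.1% of all genes were past it in either direction. The blocked count was 38 of 47 (19.7% of all genes), in 31 of 47 genes all LM2 libraries lay above all BrM2 libraries (11.7% of all genes), and in 1, MCTP2, they all lay below (11.4% of all genes). In 26 of the 47 genes the LM2 libraries lay above all 6 others, as they did in 4.72% of all genes. Since the genes were listed for this behaviour, nothing is read from these counts.

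The shift did not start at the first listed gene. When 1 contiguous run of genes was fitted to the LM2 vs Par values of the 392 tested genes placed and reported on chromosome 15, the run went from STRA6 to TM2D3 and held 133 genes, all 47 listed genes among them. Its median was 0.70 inside and 0.15 outside, on the log2 scale. STRA6, a membrane receptor for retinol-binding protein, starts at 74179466 (74.2 Mb), before WDR73 (84.6 Mb). TM2D3 starts at 101632977 (101.6 Mb), and only TARSL2 and WASH3P were tested beyond it, so the far edge of the run is close to the last tested gene of the chromosome. The 86 genes of the run that are not listed had a median of 0.62, and within replicate numbers 1, 2 and 3 of 0.57, 0.62 and 0.51. The near edge was the less settled one. In replicate number 3 alone the run began at WHAMM (82.8 Mb), without LM2 replicate 1 at UBE2Q2 (75.8 Mb), and with no filter on low counts at ZSCAN2 (84.6 Mb), whereas replicate numbers 1 and 2 alone gave STRA6.

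**Figure D2:**
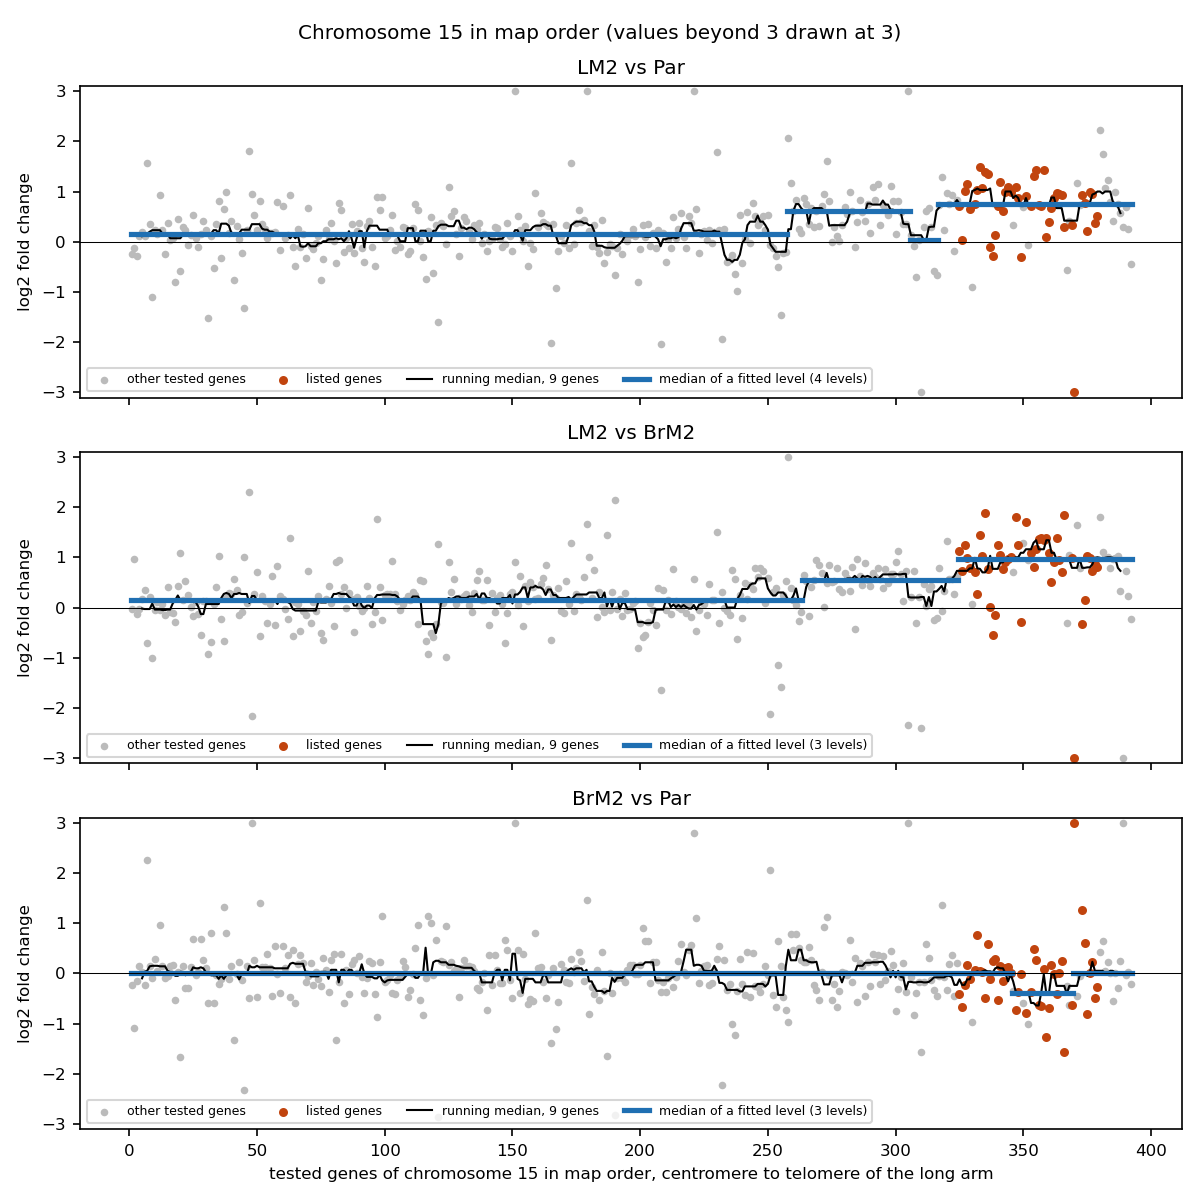
Log2 fold changes of the 392 tested genes reported on chromosome 15 in map order for LM2 vs Par, LM2 vs BrM2 and BrM2 vs Par, with listed genes in red, a running median over 9 genes in black and fitted levels in blue. In the 4 levels of LM2 vs Par the level steps from 0.15 to 0.62 at STRA6, falls to 0.04 between ZFAND6 and GOLGA2P10 and rises to 0.75 from WHAMM, and in the 3 levels of LM2 vs BrM2 it steps to 0.54 at EDC3 and to 0.97 at WDR73. The choice of the listed genes favours a step at WDR73.

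The near edge was placed on these same LM2 vs Par values, so a difference between the genes on either side of it is built in. LOXL1, a crosslinking enzyme of elastin, STOML1 and PML, the organiser of PML nuclear bodies, lay just before the edge. Their log2 fold changes were -1.45 (SE 0.48), -0.23 (SE 0.45) and -0.20 (SE 0.35). CD276 and LOXL1-AS1 before them had -0.28 (SE 0.4) and -0.51 (SE 0.19). Against BrM2, LOXL1, STOML1, PML, CD276 and LOXL1-AS1 had -1.58, 0.24, 0.53, 0.38 and -1.15. STRA6 itself measured 0.630, 0.436 and 0.511 CPM in Par, 3.38, 1.92 and 1.38 CPM in LM2 and 0.295, 0.177 and 0.336 CPM in BrM2. It was low in all lines, and its LM2 libraries lay above the others. STRA6 passed the filter only through LM2 libraries, so its being higher there was built into its passing. With no filter the run began at ZSCAN2 instead (84.6 Mb). SEMA7A, a membrane-anchored semaphorin, measured 56.5, 50.6 and 41.4 CPM in Par, 158, 80.7 and 93.9 CPM in LM2 and 107, 68.1 and 80.2 CPM in BrM2. UBL7, UBL7-AS1 and ARID3B followed with 0.62, 0.83 and 0.25. BrM2 also exceeded Par in SEMA7A, UBL7, UBL7-AS1 and ARID3B, with log2 fold changes of 0.78, 0.47, 0.78 and 0.51. LM2 vs BrM2 values for the same genes were 0.38, 0.15, 0.06 and -0.26. At the far edge, TM2D3 measured 12.0, 14.9 and 18.6 CPM in Par, 18, 26.1 and 29.6 CPM in LM2 and 13.2, 15.5 and 15.6 CPM in BrM2, with a log2 fold change of 0.70 (SE 0.25) against Par. CHSY1, which builds chondroitin chains, and SELENOS, a selenoprotein of the endoplasmic reticulum, had 1.0 and 0.75, SNRPA1 had 0.57, and PCSK6 had 0.29, while TARSL2 and WASH3P beyond the edge had 0.25 and -0.44. PCSK6 was near the floor in Par and LM2 (at most 0.533 and 0.805 CPM) and measured 13.7 to 18.9 CPM in BrM2.

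Fitting several levels was a choice made after seeing the data, and an interruption of the run appeared with 4 levels and not with 3. With 4 levels, LM2 vs Par stood at 0.15 up to PML (257 genes), at 0.62 from STRA6 to BCL2A1 (48 genes), at 0.04 from ZFAND6 to GOLGA2P10 (11 genes) and at 0.75 from WHAMM to the end (76 genes). BCL2A1, at this bound, was near the floor, with at most 0.145 CPM in Par and 0.98 CPM in LM2. It was highest in BrM2 (2.88 to 4.64 CPM). MINAR1 and ST20-AS1, just before it, had log2 fold changes of 0.35 and 0.36 between LM2 and Par. With 3 levels, the added level was the 7 genes from NEO1 to PML, just before STRA6, at -0.23, and 0.70 ran unbroken from STRA6 to the end. The summed absolute deviation was 166 with 2 levels, 164 with 3 and 162 with 4. Against BrM2, neither 3 nor 4 levels placed a step within 80.1 to 82.5 Mb. The median of these 11 genes against BrM2 was nevertheless 0.20, between 0.55 in the raised stretch before them and 0.57 from WHAMM to ZSCAN2. The 11 genes of the interruption start between 80.1 and 82.5 Mb and include ZFAND6 (0.13), FAH (-0.09), ARNT2 (-0.70), ABHD17C (0.04) and CEMIP, a hyaluronan-degrading protein. CEMIP measured 335, 244 and 258 CPM in Par, 21.2, 18 and 14.7 CPM in LM2 and 89.1, 102 and 92.6 CPM in BrM2, so its LM2 libraries were the lowest. EFL1 (0.68) and TLNRD1 (0.62), also between these bounds, were above 0. Fitted within replicate number 1 alone, the 4 levels had the same bounds. In number 3 a single level of 0.49 was fitted from STRA6 to GOLGA2P10, and the level rose to 0.77 at WHAMM. In number 2 a single level of 0.60 ran from STRA6 to the end. The medians of the 11 genes within numbers 1, 2 and 3 were -0.19, 0.25 and -0.11 against Par. Against BrM2 they were -0.03, 0.14 and 0.13.

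Set against BrM2, fits of 3 and of 4 levels had a step at the first listed gene. The listed genes were chosen for being higher in LM2 than in BrM2, so the choice favours a step there, and its place is a description. With 2 levels the only step fell at SCAMP2 (74.8 Mb). With 3, LM2 vs BrM2 stood at 0.15 up to CLK3, at 0.54 from EDC3 to ZSCAN2 (61 genes, 74.6 to 84.6 Mb) and at 0.97 from WDR73, the first listed gene, to the end (68 genes). Within single replicate numbers this second step fell at MRPL46 (88.5 Mb) in number 1, at ZSCAN2 (84.6 Mb) in number 2 and at ABHD2 (89.0 Mb) in number 3, and the first step at HMGB1P6 (71.2 Mb), RPLP1 (69.5 Mb) and SCAMP2 (74.8 Mb). By stretch, the 48 genes from STRA6 to BCL2A1 had medians of 0.62 against Par and 0.55 against BrM2, and the 8 genes from WHAMM to ZSCAN2 had 0.80 and 0.57. The 55 tested genes from WDR73 to LYSMD4, listed or not, had 0.74 and 0.97. Beyond LYSMD4, the 11 genes from ADAMTS17 to TM2D3 had 0.80 and 0.99, so the shift continued past the last listed gene in both comparisons. Before STRA6, the 257 genes had 0.15 and 0.15.

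**Figure D3:**
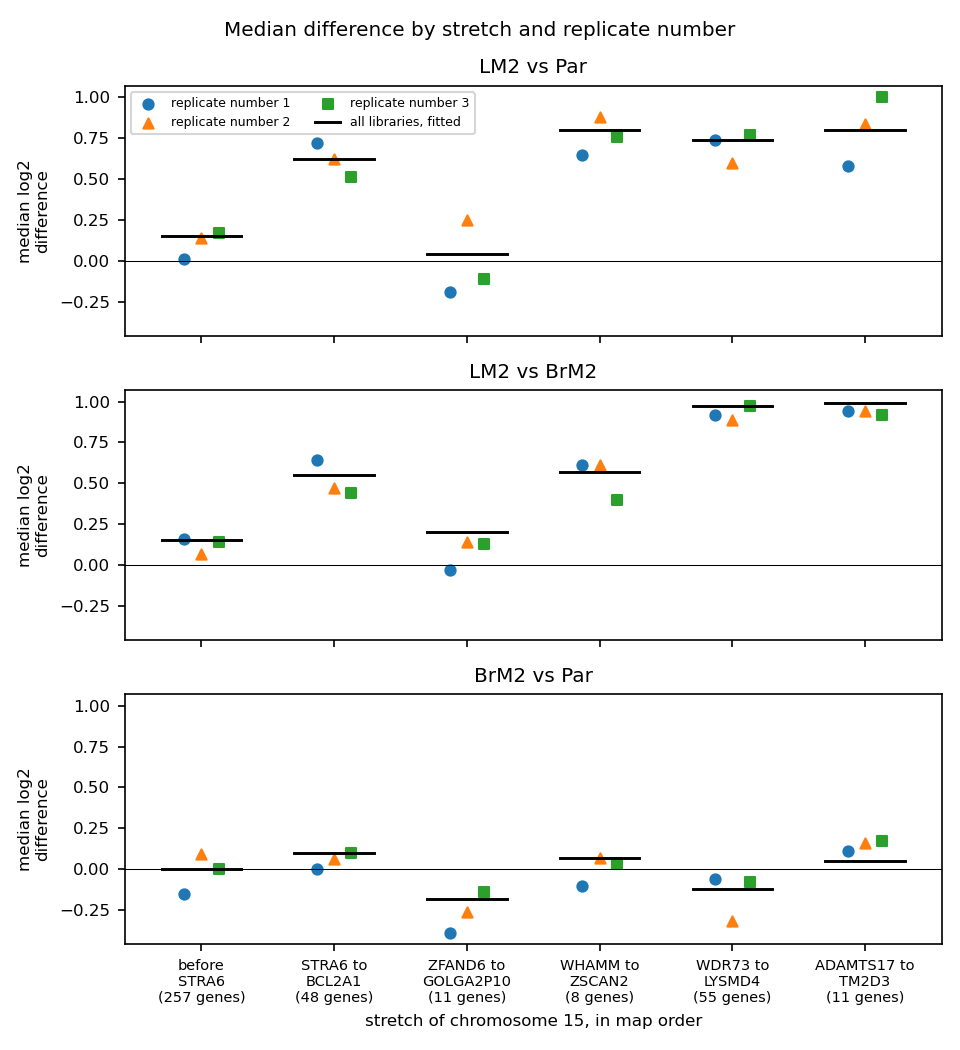
Median log2 difference over the tested genes of 6 consecutive stretches of chromosome 15, for each of the 3 comparisons, with points for replicate numbers 1, 2 and 3 (log2 CPM within the number) and black lines for the fit over all libraries. In LM2 vs Par the 3 numbers lie between 0.60 and 0.77 from WDR73 to LYSMD4 and between 0.01 and 0.17 before STRA6, and in LM2 vs BrM2 the points from WDR73 onwards lie at 0.89 to 0.97, above the 0.40 to 0.64 of the raised stretches before it. The stretch from WDR73 to LYSMD4 holds the listed genes, which were chosen for being higher in LM2.

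Within the block the shift was not even, and the genes that did not follow it lay partly side by side. In map order, the 11 tested genes from WDR73 to AEN had a median LM2 vs Par log2 fold change of 1.03, with NMB, a bombesin-like peptide, as the exception (0.04). The next 3 genes, ISG20, HAPLN3 and MFGE8 (88.6 to 88.9 Mb), had -0.11, -0.29 and 0.13 against Par and 0.01, -0.54 and -0.15 against BrM2. From ABHD2 to BLM (16 genes) the median was 0.96, with ZNF710 as the exception (-0.30). FURIN, MAN2A2 and HDDC3 then had 0.10, 0.40 and 0.67, the 4 genes from UNC45A to VPS33B a median of 0.95, and SLCO3A1 and CHD2 0.29 and 0.34. MCTP2, between CHD2 and ARRDC4, had 4 counts in Par and 0 in LM2, too few for a fold. The 7 genes from ARRDC4 to LYSMD4 had a median of 0.77, with SYNM and MEF2A below 0.5 among them. These stretches were drawn after the values were seen. In all, 35 of the 47 genes had an LM2 vs Par log2 fold change between 0.5 and 1.5, and 12 were below 0.5. Spearman's rank correlation between the log2 fold change and the mean log2 CPM was -0.03 across the 47 genes. It is a description, since the genes were chosen on these fold changes. The 47 include MCTP2 and the low-count genes MRPL46, DET1 and PRC1, which passed the filter through 1 line only. Genes on the plus strand (27) had a median of 0.76 and those on the minus strand (20) of 0.93.

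**Figure D4:**
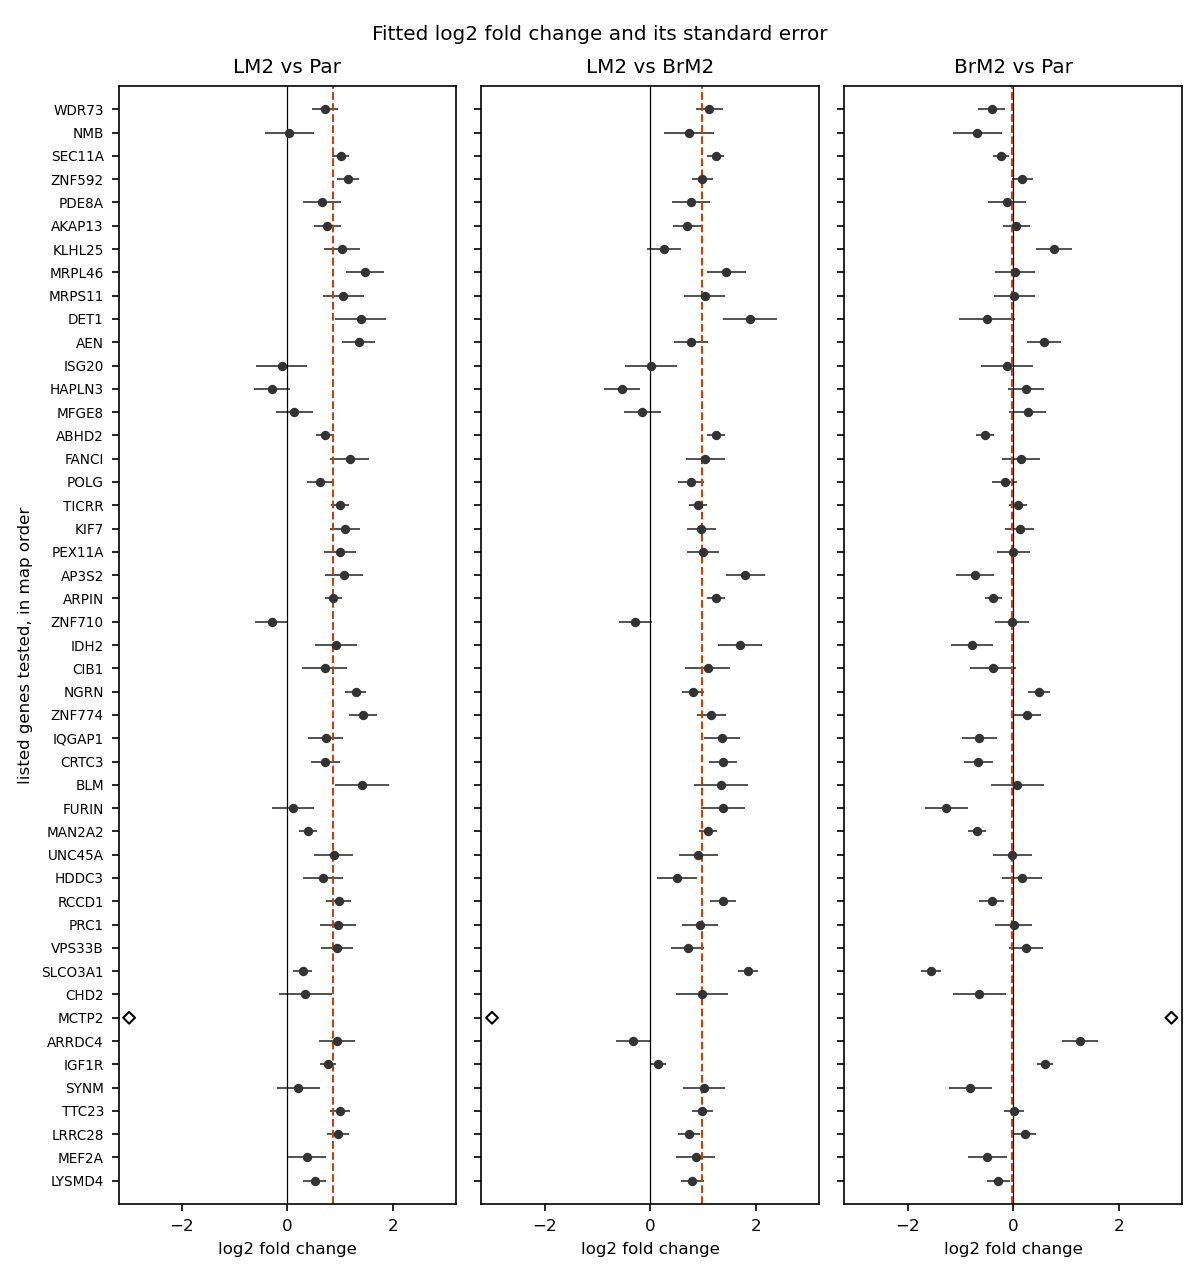
Fitted log2 fold change with its standard error (bars) for the 47 listed genes that passed the filter, in map order, in the 3 comparisons, with the median as a dashed line and MCTP2, whose values lie beyond 3 on the log2 scale, drawn as an open diamond at 3. Most points sit near the medians of 0.87 (LM2 vs Par) and 0.98 (LM2 vs BrM2), and in BrM2 vs Par they scatter around -0.02.

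Among the genes of genome maintenance and mitosis, all 5 that passed the filter had log2 fold changes above 0 in both LM2 comparisons. Their medians were 1.18 against Par and 0.95 against BrM2. Over all 13018 genes tested, 6682 were above 0 against Par and 6811 against BrM2. The genes here and in the groups below were listed for being higher in LM2, so such counts are descriptions. BLM, the helicase lost in Bloom syndrome, measured 12.3, 20.0 and 23.5 CPM in Par, 22.9, 57.9 and 68.9 CPM in LM2 and 8.61, 27.0 and 23.4 CPM in BrM2. Replicate 1 was lowest in every line, and within replicate numbers 1, 2 and 3 LM2 exceeded Par by 0.89, 1.53 and 1.55 on the log2 scale. FANCI, which is monoubiquitinated with FANCD2 at DNA crosslinks, measured 79.3, 113 and 113 CPM in Par, 130.5, 271 and 288 CPM in LM2 and 68.4, 145 and 122 CPM in BrM2. All its LM2 libraries exceeded those of Par, and replicate 1 of LM2 lay below replicate 2 of BrM2. AEN, an exonuclease induced by p53, measured 57.3, 47.3 and 33.0 CPM in Par, 172, 95.4 and 83.3 CPM in LM2 and 82.2, 63.0 and 59.9 CPM in BrM2, with LM2 the highest line and BrM2 above Par in every library. TICRR, needed to start replication, had 39.4 ± 0.801 CPM in Par, 78.7 ± 9.46 CPM in LM2 and 42.2 ± 4.18 CPM in BrM2 (mean ± SD, n = 3). PRC1, a bundler of spindle microtubules, had 26.6 counts on average, and 57.6% of its exon length is shared with a read-through gene on the same strand, so its counts are uncertain.

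All 8 genes of mitochondria and metabolism that passed the filter were also above 0 in both, with medians of 0.96 against Par and 1.02 against BrM2. ABHD2, a lipid hydrolase, measured 116, 108 and 114 CPM in Par, 160.2, 187 and 205 CPM in LM2 and 69.9, 86.7 and 77.4 CPM in BrM2. POLG measured 111, 103 and 86.4 CPM in Par, 200.2, 126 and 132 CPM in LM2 and 106, 74.3 and 87.8 CPM in BrM2. Neither gene's LM2 libraries overlapped those of the other lines. IDH2 measured 48.1, 39.1 and 34.8 CPM in Par, 127, 59.4 and 45.1 CPM in LM2 and 33.5, 17.3 and 20.4 CPM in BrM2. Replicate 1 was the highest in each line, and the lowest LM2 library lay below the highest Par library, while within replicate numbers LM2 exceeded Par by 1.39, 0.60 and 0.37 and BrM2 by 1.92, 1.77 and 1.14 on the log2 scale. The 2 mitochondrial ribosomal proteins read from neighbouring starts, MRPL46 and MRPS11, had log2 fold changes of 1.48 (SE 0.36) and 1.06 (SE 0.39) against Par and 1.44 (SE 0.37) and 1.03 (SE 0.39) against BrM2. NGRN, which takes part in mitochondrial ribosome assembly, and PEX11A, a peroxisomal membrane protein, had 1.30 and 1.0 against Par. HDDC3 had 0.67 (SE 0.38), with 25.5% of its exon length under UNC45A on the opposite strand.

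The 7 signalling genes that passed the filter were all above 0 in both comparisons, with medians of 0.73 against Par and 0.78 against BrM2. IQGAP1 measured 397, 619 and 634 CPM in Par, 616, 987 and 1127 CPM in LM2 and 218, 428 and 416 CPM in BrM2. Its LM2 values exceeded all BrM2 values, whereas LM2 replicate 1 lay among the Par values. As CPM per kilobase of exon its mean was 47.8 in Par, 79.1 in LM2 and 30.8 in BrM2, and that of IGF1R was 3.59 in Par, 6.11 in LM2 and 5.5 in BrM2. PDE8A, a cAMP phosphodiesterase, measured 52.9, 81.0 and 86.3 CPM in Par, 68.1, 136 and 145 CPM in LM2 and 43.0, 81.2 and 78.6 CPM in BrM2, again with replicate 1 the lowest in each line. IGF1R measured 47.8, 49.9 and 52.6 CPM in Par, 80.3, 85.4 and 89.9 CPM in LM2 and 77.4, 74.2 and 78.3 CPM in BrM2. Here the LM2 and BrM2 libraries both lay above all Par libraries, and LM2 exceeded BrM2 by a log2 fold change of 0.15 (SE 0.15). AKAP13, an anchoring protein for protein kinase A, had 0.76 (SE 0.26) against Par and 0.70 (SE 0.26) against BrM2. KIF7, a kinesin of the hedgehog pathway, had 1.09 and 0.97, and CIB1, a calcium-binding partner of integrin αIIb, had 0.71 and 1.09.

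**Figure D5:**
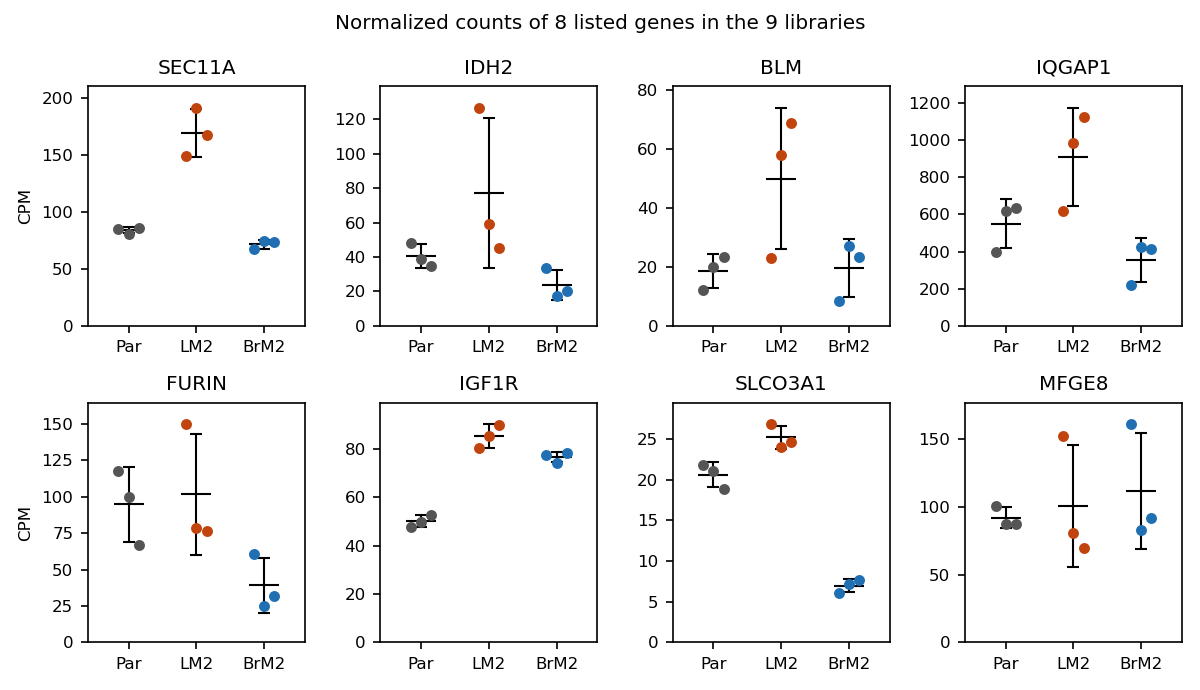
Normalized counts (CPM) of 8 listed genes in each library of Par, LM2 and BrM2, with the mean and SD of the 3 libraries of a line as a horizontal mark and bars. SEC11A, IGF1R and SLCO3A1 have tight libraries, IDH2 and BLM spread widely in LM2 (45.1 to 127 CPM and 22.9 to 68.9 CPM), and MFGE8 overlaps in all lines.

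Of 9 secretory and endosomal genes, 8 were above 0 against Par and 7 against BrM2, with medians of 0.52 and 1.09. SEC11A, a catalytic subunit of the signal peptidase complex, measured 85.1, 81.0 and 86.2 CPM in Par, 149, 192 and 168 CPM in LM2 and 67.2, 74.3 and 74.1 CPM in BrM2. All LM2 libraries were above the rest, a 2.01-fold difference from Par and 2.36-fold from BrM2. FURIN measured 117, 99.9 and 66.8 CPM in Par, 149.6, 78.3 and 76.7 CPM in LM2 and 60.6, 24.8 and 32.1 CPM in BrM2. LM2 and Par overlapped, and all BrM2 libraries lay below both, with an LM2 vs Par log2 fold change of 0.10 (SE 0.40). AP3S2, a subunit of the AP-3 adaptor of lysosomal sorting, had 1.08 (SE 0.36) against Par and 1.80 (SE 0.37) against BrM2. SLCO3A1, an organic anion transporter, measured 21.8, 21.1 and 18.9 CPM in Par, 26.8, 24 and 24.6 CPM in LM2 and 6.11, 7.13 and 7.69 CPM in BrM2, a small difference between LM2 and Par beside a large one between both and BrM2. MAN2A2, a mannosidase of N-glycan trimming, followed the same order, with 57.0 ± 2.35 CPM in Par, 75 ± 3.5 CPM in LM2 and 35.2 ± 4.70 CPM in BrM2 (mean ± SD, n = 3). MCTP2, a C2-domain protein of membranes, had 4 counts in the 3 Par libraries together, 0 in LM2 and 279 in BrM2, so few in Par and LM2 that no fold is given between them. ARRDC4 had 0.94 (SE 0.34) against Par and -0.32 against BrM2. VPS33B had 0.94 against Par from 53.9 counts on average, with 55.7% of its exon length under the same read-through gene as PRC1, and LYSMD4, the last listed gene, had 0.52 (SE 0.22).

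Of 7 transcription and chromatin genes, 5 were above 0 against Par and 6 against BrM2, with medians of 0.37 and 0.98. ZNF592, a zinc finger protein, measured 89.7, 74.0 and 73.5 CPM in Par, 213, 153 and 162 CPM in LM2 and 103, 83.9 and 79.3 CPM in BrM2. All its LM2 libraries were above the rest. ZNF774 had 1.43 (SE 0.27) against Par, and CRTC3, a coactivator of CREB, had 0.72 (SE 0.27) against Par and 1.38 (SE 0.27) against BrM2. CHD2 measured 69.5, 124 and 132 CPM in Par, 64.4, 172 and 176 CPM in LM2 and 30.8, 93.0 and 85.7 CPM in BrM2. Its LM2 values spread over both other lines, and within replicate numbers LM2 differed from Par by -0.11, 0.47 and 0.41. MEF2A, a MADS-box factor, had 0.37 (SE 0.37) and 0.86 (SE 0.37), ISG20, an interferon-induced exonuclease, had -0.11 (SE 0.49) and 0.01 (SE 0.49), and ZNF710 had -0.30 (SE 0.32) and -0.28 (SE 0.32) (15.8% of its exon length is under ZNF710-AS1 on the other strand).

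The 5 matrix and cytoskeletal genes had medians of 0.21 against Par (4 above 0) and 0.91 against BrM2 (3 above 0). UNC45A, a myosin chaperone, measured 107, 88.1 and 66.8 CPM in Par, 253, 117 and 114 CPM in LM2 and 118, 66.1 and 74.2 CPM in BrM2. LM2 replicate 1 was the highest library, all LM2 libraries exceeded those of Par, and BrM2 replicate 1 lay above LM2 replicates 2 and 3. MFGE8, the milk fat globule protein that bridges apoptotic cells to phagocytes, measured 101, 87.4 and 87.4 CPM in Par, 153, 80.4 and 69.4 CPM in LM2 and 161, 83.3 and 91.6 CPM in BrM2. The 3 lines overlapped, with replicate 1 the highest in each. HAPLN3, a hyaluronan link protein, had -0.29 (SE 0.34) against Par, ARPIN, an inhibitor of the Arp2/3 complex, had 0.87 (SE 0.16), and SYNM, an intermediate filament protein, had 0.21 (SE 0.40). The 6 other or less studied genes were all above 0 in both comparisons, with medians of 0.99 and 1.06. RCCD1 measured 64.2, 54.1 and 51.8 CPM in Par, 148, 96.7 and 88.2 CPM in LM2 and 48.6, 38.1 and 41.0 CPM in BrM2. TTC23 measured 12.1, 13.1 and 15.6 CPM in Par, 28.2, 24.2 and 29.5 CPM in LM2 and 12.9, 13.1 and 15.1 CPM in BrM2. In both, every LM2 library was above the rest. WDR73, KLHL25, DET1 and LRRC28 had 0.71, 1.03, 1.39 and 0.96 against Par, and 1.12, 0.26, 1.89 and 0.73 against BrM2.

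Between the first and the last listed gene, 8 further genes were tested. NR2F2-AS1 (1.17), NR2F2, an orphan nuclear receptor (0.74), and ZNF710-AS1 (0.70) had the largest log2 fold changes against Par, and CSPG4P12 (-0.91), FAM174B (-0.57) and SEMA4B, a transmembrane semaphorin (-0.07), the smallest. Against BrM2, SEMA4B had 0.94. The median of the 8 was 0.38 against Par and 0.86 against BrM2.

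The comparison of BrM2 with Par shows the block in the lines it was not listed for. The median log2 fold change of the 47 genes was -0.02, beside -0.02 over all genes, and 23 were above 0, PEX11A among them at 0.00. By edgeR, 3 of the 47 were higher in BrM2 (6.24% of all genes) and 2 lower (7.0% of all genes) at an adjusted p of 0.05, shares of 6.38% and 4.26%. Without the 4 genes that passed the filter through 1 line only, 2 of 43 were higher and 2 lower (4.65% each). SLCO3A1 was lower in BrM2, with a log2 fold change of -1.56 (SE 0.19, adjusted p = 0.00081), as was MAN2A2, with -0.69 (SE 0.17, adjusted p = 0.027). IGF1R was higher in BrM2, with 0.61 (SE 0.15, adjusted p = 0.03), as was ARRDC4, an arrestin-like adaptor, with 1.27 (SE 0.34, adjusted p = 0.039). MCTP2 had 4 counts in the Par libraries and 279 in BrM2, a ratio of 79.6 after scaling to library size (95% interval 30.7 to 294, counting error only), and was at least 115-fold higher in BrM2 than in LM2, taking 3 counts over the LM2 group as its floor. It passed the filter only through its BrM2 libraries, so its place among the genes past the threshold is a description. The call of SLCO3A1 held when any single library was left out, with adjusted p-values up to 0.0063 over all alternatives. Those of MAN2A2, IGF1R and ARRDC4 were lost when any 1 of the Par libraries, LM2 replicate 2 or BrM2 replicate 2 or 3 was left out, for IGF1R and ARRDC4 also without LM2 replicate 3 and for IGF1R without BrM2 replicate 1, with adjusted p-values up to 0.2, 0.27 and 0.13 over all alternatives.

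With the replicate block, 20 of the 47 genes differed between BrM2 and Par, 6 higher (12.8%) and 14 lower (29.8%), beside 19.5% and 23.2% of all genes. The genes added as lower were NMB, ABHD2, AP3S2, ARPIN, IDH2, IQGAP1, CRTC3, FURIN, RCCD1, CHD2, SYNM and MEF2A, and those added as higher were KLHL25, AEN and NGRN. FURIN had a log2 fold change of -1.27 (SE 0.41), with an edgeR adjusted p = 0.078 without and 0.0002 with the block. IDH2 had -0.78 (SE 0.40), with an adjusted p = 0.29 without and 0.0052 with it. When 1 run was fitted to the BrM2 vs Par values, a choice made after seeing the data, it went from MESP1 to MAN2A2 (89.7 to 90.9 Mb) and held 15 genes at a median of -0.59 against 0.01 outside, 12 of them listed. A fit of 3 levels started at the same gene and ended at CHD2 (92.9 Mb), with 24 genes at -0.40, 19 of them listed. Fits of 2 and of 4 levels had no such stretch, and with 4 levels a single level of -0.05 ran from SCAMP2 to the end (125 genes), so whether there is a lower stretch here depends on the number of levels. In the 19 listed genes from MESP1 to CHD2 LM2 exceeded Par by a median of 0.87 and BrM2 by 1.16.

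Partners of the block's proteins that are encoded elsewhere were taken as 7 lists, with the 3 that lie inside the run left out. Of the 135 partner genes tested, 4 were higher and 1 was lower in LM2 than in Par (edgeR, adjusted p of 0.05), where 8.67% of all genes were called in either direction, and with the replicate block 39 were called, where 34.5% of all genes were. None of the 18 Fanconi and BLM partners, the 12 genes of AP-3 and HOPS trafficking, the 9 of the central spindle and the 9 MEF2 and CRTC partners was called without the block. With it, 6 Fanconi and BLM partners were higher and 0 lower, 3 trafficking genes were higher and 1 lower, 2 spindle genes were higher and 3 MEF2 and CRTC partners were lower. Of 73 mitochondrial ribosomal genes, 9 were higher and 4 lower with the block. Without it 1 was higher, MRPS30 (0.69, SE 0.17, adjusted p = 0.042). The mean of MRPS30 was 30.5 CPM in Par and 49.0 CPM in both LM2 and BrM2. The median of the 73 was 0.11. MRPL46 and MRPS11, which were listed for being higher in LM2, had 1.48 and 1.06. The 10 genes of IGF and insulin signalling had 2 higher and 1 lower without the block, and 4 higher and 6 lower with it. IRS2, an adaptor below IGF1R, was higher (0.72, SE 0.17, adjusted p = 0.035) and INSR, the insulin receptor, lower (-0.77, SE 0.19, adjusted p = 0.036). IGFBP2, an IGF-binding protein, rose from 0.130 ± 0.0962 CPM in Par to 3.93 ± 2.0 CPM in LM2 (SD, n = 3, edgeR adjusted p = 0.0018). Its mean in BrM2 was 0.016 CPM, so only LM2 libraries took it past the filter on low counts. Its being higher in LM2 was therefore built into its passing, and its call is a description. PCSK5, a relative of FURIN, rose from 0.190 ± 0.112 CPM in Par to 1.88 ± 0.379 CPM in LM2 (SD, n = 3, edgeR adjusted p = 0.0012). PCSK5 was highest in BrM2, at 10.7 ± 0.806 CPM, with an LM2 vs BrM2 log2 fold change of -2.5. The calls of IGFBP2 and PCSK5 held under every alternative, and those of IRS2, INSR and MRPS30 were lost with no filter on low counts and when any 1 of the Par libraries, LM2 replicate 2 or 3 or BrM2 replicate 2 or 3 was left out, for INSR also without LM2 replicate 1.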

How the data were processed

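Poly(A) RNA from 3 libraries each of Par, LM2 and BrM2 was prepared with a stranded kit and sequenced as paired ends. The authors aligned the reads to hg38 with STAR 2.7.0 and deposited raw read counts per gene, which are the values used here. Whether strand entered the counting is not given in the sources used here, so reads of genes that overlap on opposite strands may not be told apart. A second deposited table holds the authors' DESeq2 log2 fold changes and adjusted p-values of LM2 and BrM2 against Par and was not used.

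Of 58887 rows, 3 repeated identifiers held identical values and were kept once. Genes were kept where any library exceeded a normalized count of 47.15, the threshold of 100 between 1 and 200 at which libraries of a line were most alike (loess span 0.3), which left 13018 genes and 99.64 to 99.77% of counts. The counts were fitted with edgeR 4.0.16 (R 4.3.3; TMM, quasi-likelihood test, line as group, all 9 libraries), with Benjamini-Hochberg adjustment over all genes and a threshold of 0.05. The filter and threshold follow the study's methods, which used DESeq2 as the test. CPM are TMM-normalized, folds are LM2 or BrM2 over the line named second, and SE is the standard error of the log2 fold change. Gene positions came from RefSeq annotation of GRCh38, and 12405 of the 13018 genes were placed. Exon lengths and exon overlaps came from GENCODE annotation lifted to the genome build before GRCh38. A gene of chromosome 15 is not reported here and was left out of the profile and the fits along it. The run on chromosome 15 was the contiguous set of at least 5 genes that minimised the summed absolute deviation from the median inside and outside it.

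Libraries of the same replicate number deviated together in all 9 pairs of lines (r across genes 0.228 to 0.899), so fits with the replicate number as a block are given where they change a count. With it, the common dispersion fell from 0.11 to 0.021. Alternatives were RLE size factors, no filter, filterByExpr, DESeq2 1.42.0, the block and each library left out in turn. Fits of several levels, the run in BrM2 vs Par and the fits without replicate number 1 were added after seeing the data. The edgeR fit and the step fit were tested on simulated data.

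The members and lists were chosen with earlier results of these data known. All 55 genes could be named. Values per library are given for the 1 or 2 genes of each role with the highest mean count, for IGF1R, FURIN, BLM and IDH2 and for the first and last genes of the run, and the 5 genes next to each edge, the 3 largest and 3 smallest other genes inside the block and the partner genes past the threshold are named. SEC11A, SLCO3A1, CEMIP, SEMA7A and the genes in the stretches were also described after their values were seen. Intervals and floors cover counting error only.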

Additional observations from a re-analysis of the deposited data

How the results depend on the processing

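Relative to Par, the number of the 47 genes past the threshold in LM2 was 14, and it was 35 with the replicate block, 9 with no filter, 23 with DESeq2 and 30 without replicate number 1 of all lines, an alternative chosen after seeing the data. It ranged from 5 to 15 when single libraries were left out, and fell by over 1.5 times without any Par library, LM2 replicate 2 or 3 or BrM2 replicate 3. Relative to BrM2 it was 17 (18 with MCTP2, which was lower), 38 with the replicate block and 35 without replicate number 1, and 6 to 17 with single libraries left out, with LM2 replicates 2 and 3 and BrM2 replicates 2 and 3 moving it by over 1.5 times. In BrM2 vs Par the count of 5 became 20 with the replicate block, 19 without replicate number 1 and 2 to 7 with single libraries left out, and it fell without any Par library or without replicate 2 or 3 of LM2 or BrM2. The 5 partner gene calls became 39 with the replicate block, 2 with no filter, 11 with DESeq2, 42 without replicate number 1 and 2 to 6 with single libraries left out, and they fell without all but replicate 1 of LM2 and of BrM2. Fewer libraries leave fewer residual degrees of freedom in these fits, and the counts rose without replicate number 1 of all lines. Why the counts moved was not tested. The median log2 fold change was far less affected. For LM2 vs Par it was 0.87, 0.80 with the block, 0.75 without replicate number 1 and 0.72 to 0.89 with single libraries left out, the lowest without LM2 replicate 1. It was 0.98 (0.93 to 0.98) for LM2 vs BrM2, and for BrM2 vs Par -0.02 (-0.18 to -0.02), with 0.02 under RLE size factors, filterByExpr and DESeq2. The first gene of the run (74.2 Mb) lay at 82.8 Mb in replicate number 3 alone, at 84.6 Mb with no filter and at 74.2 to 75.8 Mb with single libraries left out, the last without LM2 replicate 1. The last gene (101.6 Mb) lay at 101.3 Mb in LM2 vs BrM2 and in replicate number 1 alone and at 101.3 to 101.7 Mb with single libraries left out. No gene past the threshold changed sign under any of these alternatives. For single genes, 948 of the values kept their call or size, 48 lost a call, 35 gained one and 49 moved, and the cause was not tested. With 3 libraries a line, genes of few counts such as PRC1, DET1 and MRPL46 carry wide errors.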

Other observations

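The 8 listed genes under the filter on low counts had these mean levels. GDPGP1, a GDP-glucose phosphorylase, had 0.528 CPM in Par, 1.24 in LM2 and 0.562 in BrM2, and its LM2 libraries lay above all others. ALPK3 had 0.303, 0.666 and 0.277 CPM, FES, a tyrosine kinase, 0.489, 0.711 and 0.474 CPM, and PLIN1, a lipid droplet protein, 0.209, 0.321 and 0.140 CPM. NTRK3, a neurotrophin receptor, had 3, 6 and 8 counts in the Par libraries and at most 3 in any other, and ACAN, RHCG and ST8SIA2 had at most 2 counts in any library.

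The read-through gene that shares exons with PRC1 and VPS33B was listed without a symbol. It had 336 counts on average, more than either, and measured 9.09, 15.3 and 14 CPM in Par, 17.6, 25.6 and 25.4 CPM in LM2 and 5.46, 11.4 and 9.73 CPM in BrM2, with a log2 fold change of 0.84 (SE 0.32) between LM2 and Par.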
